A study of Mus musculus with 6 samples.

Results

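The 10 genes described here encode the transporters that bring glucose into the cell and enzymes that turn it into lactate: Slc2a1, Slc2a3, Hk1, Hk2, Pfkp, Aldoa, Gapdh, Pgk1, Pkm and Ldha. They were chosen by name, and all 10 were among the 17832 genes of the deposited table. The libraries were 3 of CD8+ cells, numbered 387, 389 and 395, and 3 of CD4+ cells, numbered 385, 393 and 395, all FACS-sorted from spleen, the mice being of strain C57BL/6. Every animal carried a subcutaneous osmotic mini-pump that released angiotensin II, a hormone that constricts vessels, so no comparison here addresses the hormone. The labels used here give no age, sex, dose or duration. The labels do not say that the numbers mark separate mice, so p-values measure the spread between these libraries.

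Glycolysis splits glucose into pyruvate in the cytosol and yields ATP without oxygen. Glucose enters through transporters of the SLC2 (GLUT) family, hexokinases trap it by phosphorylation, phosphofructokinase commits it to the pathway, and lactate dehydrogenase reduces the pyruvate to lactate. Activated T cells are known for raising glucose uptake and lactate output, and resting T cells rely more on mitochondrial respiration. Maturing red cells depend on glycolysis, and several steps have an isoenzyme gene used mainly in the erythroid, myeloid or muscle lineage.

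The table gives read counts divided by 1 size factor per library, called normalised reads here; recovered whole reads ranged from 10264246 to 14628599 per library. Each library had the coreceptor transcripts of its label: Cd8a was between 3871 and 10001 in the CD8 libraries and between 7.45 and 36.8 in the CD4 libraries, and Cd4 was between 38.9 and 163 in the CD8 libraries and between 4065 and 6313 in the CD4 libraries. Markers of other spleen cells were present beside those of T cells. Libraries CD8 389 and CD4 393 stood at opposite ends for the erythroid, proliferation and T cell receptor sums, but not for the sums of the other cell types. The 17 erythroid markers, with at least 3 reads each in every library, summed to between 75256 and 149213 in the CD8 libraries and between 45951 and 106005 in the CD4 libraries, with CD8 389 the highest and CD4 393 the lowest. The 14 proliferation markers had the same extremes, with sums of 35662 to 76843 in CD8 and 23769 to 43895 in CD4. The 18 T cell receptor genes had the reverse extremes, with 15317 to 49135 in CD8 and 34291 to 65612 in CD4, lowest in CD8 389 and highest in CD4 393. Sums for macrophages and monocytes were 7726 to 25507 in CD8 and 5609 to 33120.3 in CD4, and for neutrophils 1862 to 7865 in CD8 and 533 to 13645 in CD4, with Ly6g, Ltf and Mmp8 at 0 in a library. B lineage transcripts were also present throughout. Sums for B cells were 63101 to 120336 in CD8 and 80489 to 106389 in CD4, for plasma cells 10383 to 15839 in CD8 and 12352 to 15501 in CD4, and for natural killer cells 853 to 2568 in CD8 and 602 to 2349 in CD4, with Klra8 and Klra4 at 0 in a library.

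None of the 10 genes was called different between the CD8 and the CD4 libraries. Limma on log2(value + 1) called 68 of the 13877 genes tested at an adjusted p under 0.05, or 0.49%, and 0 of these 10. At an unadjusted p under 0.05 the counts were 5.82% of all genes and 0 of the 10. EdgeR called 0.425% of all genes and DESeq2 2.3%, and each called 0 of the 10. Their median log2 difference, CD8 minus CD4, was -0.0043, beside 0.04 for all genes tested. The adjusted p lay between 0.946 and 0.998. The ranges of the groups overlapped for 9 of the 10, and Pkm was the exception; ranges did not overlap for 10.2% of all genes tested. The summed level of the 10 was also close between groups, with 27591 to 29200.2 normalised reads in the CD8 libraries and 25730.2 to 30142 in the CD4 libraries, which was between 0.223% and 0.248% of a library's total. Between single libraries, values differed by up to 3.01-fold, for Slc2a1. In these mixed bulk libraries, fewer cells of a type and less RNA per cell cannot be told apart.

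**Figure D1:**
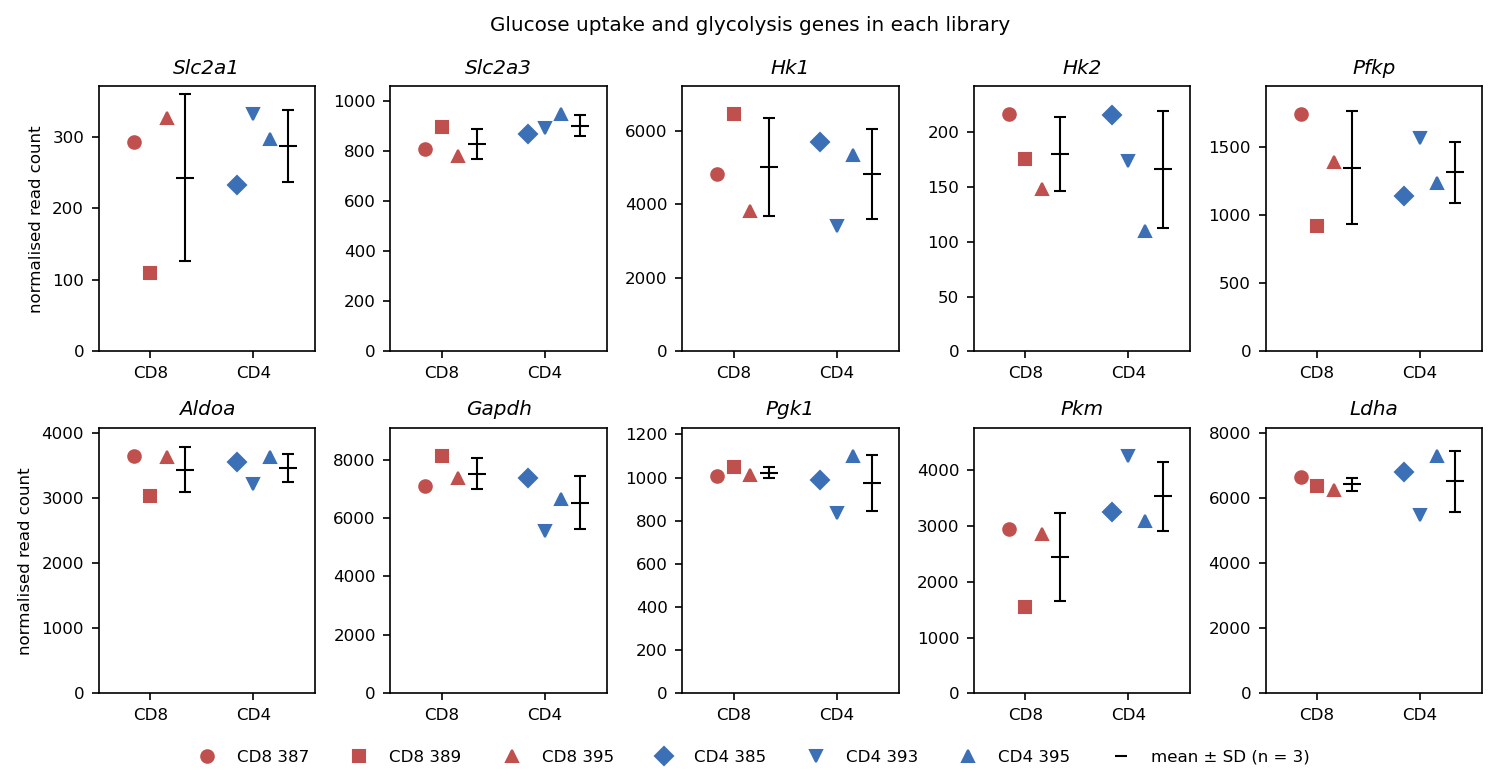
Normalised read counts (y axis, from 0) of the 10 genes in the 3 CD8 libraries (red, left) and the 3 CD4 libraries (blue, right), with the mean ± SD of each group in black. Pkm is the gene whose groups do not touch, and CD8 389 (square) is the lowest library for Slc2a1, Pfkp, Aldoa and Pkm and the highest for Hk1 and Gapdh.

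The start-site sequences of genes on which the results turn are shown first, since the factors encoded by Hif1a and Epas1, treated below, bind the core ACGTG. They are RefSeq windows of build GRCm38.p6, an older build than the GRCm39 named in the submitters' processing notes, from 250 bases before to 50 after a start, and were matched by symbol for 9 of the 10 genes (Slc2a3 was the other). Capitals mark ACGTG or its reverse complement CACGT, or, in Pklr, AGATAA, a sequence that GATA factors, those of the erythroid lineage among them, bind. The palindrome CACGTG counts as a match on each strand. Slc2a1 and Pkm had their lowest values in CD8 389, Hk1 and Pklr had their highest there, and Ldha had the most matches:
Slc2a1, chr4:119108495-119108794, plus strand: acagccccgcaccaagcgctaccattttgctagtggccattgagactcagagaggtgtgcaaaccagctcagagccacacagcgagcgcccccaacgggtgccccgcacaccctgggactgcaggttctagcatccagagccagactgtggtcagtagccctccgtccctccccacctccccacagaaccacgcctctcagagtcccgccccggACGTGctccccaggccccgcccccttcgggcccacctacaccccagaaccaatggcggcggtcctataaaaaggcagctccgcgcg
Hk1, chr10:62340372-62340671, minus strand: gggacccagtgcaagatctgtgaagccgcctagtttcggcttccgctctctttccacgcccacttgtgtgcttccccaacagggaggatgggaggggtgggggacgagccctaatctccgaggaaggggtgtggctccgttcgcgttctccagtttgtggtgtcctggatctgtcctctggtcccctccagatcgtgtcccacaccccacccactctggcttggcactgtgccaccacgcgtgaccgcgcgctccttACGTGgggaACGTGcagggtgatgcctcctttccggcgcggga
Pkm, chr9:59656977-59657276, plus strand: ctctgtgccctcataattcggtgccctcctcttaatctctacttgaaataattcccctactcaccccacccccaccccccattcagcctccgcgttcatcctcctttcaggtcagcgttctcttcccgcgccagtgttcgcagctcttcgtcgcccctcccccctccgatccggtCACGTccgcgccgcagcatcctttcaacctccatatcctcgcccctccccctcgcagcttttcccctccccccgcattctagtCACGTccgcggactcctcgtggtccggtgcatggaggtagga
Ldha, chr7:46845554-46845853, plus strand: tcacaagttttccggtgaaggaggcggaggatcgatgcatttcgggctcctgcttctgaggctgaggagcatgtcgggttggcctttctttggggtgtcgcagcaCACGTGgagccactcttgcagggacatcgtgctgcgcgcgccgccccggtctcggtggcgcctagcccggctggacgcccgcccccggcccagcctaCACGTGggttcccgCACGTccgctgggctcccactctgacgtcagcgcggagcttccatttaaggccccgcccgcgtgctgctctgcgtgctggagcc
Pklr, chr3:89135892-89136191, plus strand: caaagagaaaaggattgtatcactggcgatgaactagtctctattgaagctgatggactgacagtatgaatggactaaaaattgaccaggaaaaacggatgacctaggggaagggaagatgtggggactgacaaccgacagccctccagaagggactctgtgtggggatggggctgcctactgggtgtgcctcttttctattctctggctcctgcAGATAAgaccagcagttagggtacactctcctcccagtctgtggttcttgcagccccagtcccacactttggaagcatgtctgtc

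In these windows Slc2a1 had 1 match to ACGTG, Hk1 had 2, Pkm had 2 and Ldha had 5, all counted over both strands. Where a gene had more than 1 window, the one with a match is shown, and the other windows of Hk1, Pkm and Ldha had 0. Of the 14 windows of the 9 genes, 9 held the core (64.3%), and they belonged to 8 of the genes, with Pfkp having none. Of the windows that held it, 2 windows of Aldoa overlapped and shared the same site. Over the whole RefSeq table, 19.6% of the 32851 windows held the core, as did 21.8% of the 27025 genes in at least 1 window. AGATAA or its reverse complement was in 0 of the 14 windows, in 1 of the 2 windows of Pklr and in 11.2% of all windows. A match describes the letters and says nothing of whether a factor binds there.

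The glucose transporter genes showed no called difference. Slc2a1, which encodes the widely expressed transporter GLUT1 that T cells bring to their surface on activation, had 292, 110.1 and 327 normalised reads in CD8 387, 389 and 395, against 232, 331 and 297 in CD4 385, 393 and 395. CD8 389 was far below the other 5 libraries, and the groups overlapped. The log2 difference was -0.37 (SE 0.41, 95% interval -1.33 to 0.59, limma adjusted p = 0.946), and it turned to 0.12 without CD8 389. Slc2a3, which encodes the high-affinity transporter GLUT3, had 808, 899 and 783 in the CD8 libraries, against 869, 893 and 948 in the CD4 libraries. Its values were close in every library, with 1.21-fold between the highest and the lowest, and the log2 difference was -0.12 (SE 0.14, 95% interval -0.44 to 0.20).

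Slc2a3 stood above Slc2a1 in every library. Per base of the principal transcript, the ratio of Slc2a3 to Slc2a1 was 2.28, 6.73 and 1.98 in CD8 387, 389 and 395, against 3.08, 2.22 and 2.63 in CD4 385, 393 and 395. The high ratio of CD8 389 came from its low Slc2a1. Over the exon union of each gene in place of the principal transcript, the ratio still ranged from 1.16 to 3.95.

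Hk1 was the main hexokinase transcript in every library. Hk1, the hexokinase of most tissues, which also has an erythroid transcript, had 4816, 6451 and 3815 normalised reads in CD8 387, 389 and 395, against 5704, 3421 and 5358 in CD4 385, 393 and 395. CD8 389 was the highest and CD4 393 the lowest library, and the groups overlapped. Hk2, the hexokinase induced by growth and activation signals, had 216, 176 and 149 in the CD8 libraries, against 216, 174 and 109.6 in the CD4 libraries. Both groups covered much the same range, and CD4 395 was the lowest. The log2 differences were 0.06 for Hk1 (SE 0.27, 95% interval -0.56 to 0.69) and 0.15 for Hk2 (SE 0.30, 95% interval -0.55 to 0.85). Per base of the principal transcript, Hk1 exceeded Hk2 by 31.8-, 52.5- and 36.7-fold in CD8 387, 389 and 395, against 37.9-, 28.2- and 69.98-fold in CD4 385, 393 and 395. Over the exon union the ratio was lower, at 15.6, 25.7 and 17.9 in the CD8 libraries, against 18.5, 13.8 and 34.2 in the CD4 libraries.

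Hk3, the hexokinase of myeloid cells, had 472, 316 and 434 normalised reads in CD8 387, 389 and 395, against 535, 364 and 90.4 in CD4 385, 393 and 395. The lowest values, in CD4 395 and CD8 389, were in the libraries whose 14 macrophage and monocyte markers had the lowest sums, 5609 and 7726. The order did not match elsewhere: CD4 393, with the second highest sum at 31423, had less Hk3 than CD8 395, with a sum of 23232. None of those 14 markers was at 0 in any library, and their part in the Hk3 values was not tested.

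Phosphofructokinase is a tetramer of subunits from 3 genes, and the platelet-type gene Pfkp is the member here. Pfkp had 1739, 917 and 1389 normalised reads in CD8 387, 389 and 395, against 1139, 1567 and 1233 in CD4 385, 393 and 395. CD8 held both the highest and the lowest library, so that the log2 difference was 0.0027 with a wide interval (SE 0.25, 95% interval -0.59 to 0.59). The muscle-type gene Pfkm, whose subunit is also found in red cells, had 1369, 2376 and 1386 in the CD8 libraries, against 1724, 865 and 1546 in the CD4 libraries, with CD8 389 highest and CD4 393 lowest. CD8 389 was thus the lowest library for Pfkp and the highest for Pfkm. The liver-type gene Pfkl kept between 983 and 1262 in all 6 libraries.

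Aldoa, Gapdh and Pgk1, of the middle of the pathway, differed by less than 1.5-fold over the 6 libraries. Aldoa, the aldolase that splits fructose bisphosphate, had 3642, 3038 and 3639 normalised reads in CD8 387, 389 and 395, against 3553, 3222 and 3626 in CD4 385, 393 and 395. The 2 lowest libraries were from different groups, and the log2 difference was -0.015 (SE 0.15, 95% interval -0.36 to 0.33). Gapdh, the dehydrogenase that makes NADH and is often used as a reference transcript, had 7092, 8107 and 7364 in the CD8 libraries, against 7377, 5566 and 6647 in the CD4 libraries. It was highest in CD8 389 and lowest in CD4 393, with 1.46-fold between them and a log2 difference of 0.21 (SE 0.17, 95% interval -0.19 to 0.61). Pgk1, the kinase of the first ATP-making step, had 1009, 1051 and 1009.9 in CD8 libraries, against 989.6, 837 and 1098 in CD4 libraries. The 3 CD8 libraries lay inside the range of the CD4 libraries, and the log2 difference was 0.08 (SE 0.15, 95% interval -0.27 to 0.43). Several of these genes, Gapdh and Ldha among them, have processed pseudogenes in the mouse genome, and reads shared with such copies were not examined here; the copy Ldha-ps2 had 18 reads over all libraries.

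Pkm, the pyruvate kinase gene of T cells and most other tissues, was lower in every CD8 library than in any CD4 library but did not pass the test. It had 2944, 1541 and 2852 normalised reads in CD8 387, 389 and 395, against 3249, 4246 and 3097 in CD4 385, 393 and 395. The gap between the groups was narrow and the spread inside each was wide, with CD8 389 far below and CD4 393 far above the other 4 libraries. Means were 2446 ± 784 in CD8 and 3531 ± 624 in CD4 (SD, n = 3 each), a log2 difference of -0.57 (SE 0.27, 95% interval -1.21 to 0.07, limma unadjusted p = 0.072, adjusted p = 0.946). It was -0.27 without CD8 389 and -0.43 without CD4 393, and 0.11 after rescaling each library to its T cell receptor sum, a step that moved the median of all genes tested to 0.72 and so left Pkm below it. The sums of 12 dendritic cell markers, none of them at 0, and of the 7 platelet markers in the table, with Ppbp at 0 in a library, also had no overlap between groups, at 29824 to 44837 and 538 to 583 in CD8, against 4759.5 to 14695 and 1127 to 1526 in CD4. Singly, 9 of the 12 dendritic cell markers had no overlap, beside 10.2% of all genes tested, and all 12 had log2 differences above 0. Of the 6 platelet markers tested, 1 had no overlap, and 3 differences were above and 3 below 0. The platelet sum therefore does not describe its list as a whole. The part of either cell type in Pkm, and in Ldhb, Epas1 and Hif1a below, was not tested.

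Pklr, the pyruvate kinase gene of red cells and liver, had the reverse extremes of Pkm, but its groups overlapped and it was not called. It had 3396, 5010.2 and 2707 normalised reads in CD8 387, 389 and 395, against 3675, 1391 and 3453 in CD4 385, 393 and 395. CD8 389 was the highest and CD4 393 the lowest library, and the order of all 6 libraries was the same as for Hk1. Per base of the principal transcript, the ratio of Pklr to Pkm was 0.967, 2.72 and 0.795 in the CD8 libraries, against 0.948, 0.275 and 0.934 in the CD4 libraries. The ratio was highest in CD8 389 and lowest in CD4 393. Over the exon union it was 1.78, 5.02 and 1.47 in the CD8 libraries, against 1.75, 0.506 and 1.72 in the CD4 libraries. On either length Pklr exceeded Pkm in CD8 389 and was below it in CD4 393, and which gene was higher in the other 4 libraries depended on the length used. This pair was chosen after its values were seen.

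**Figure D2:**
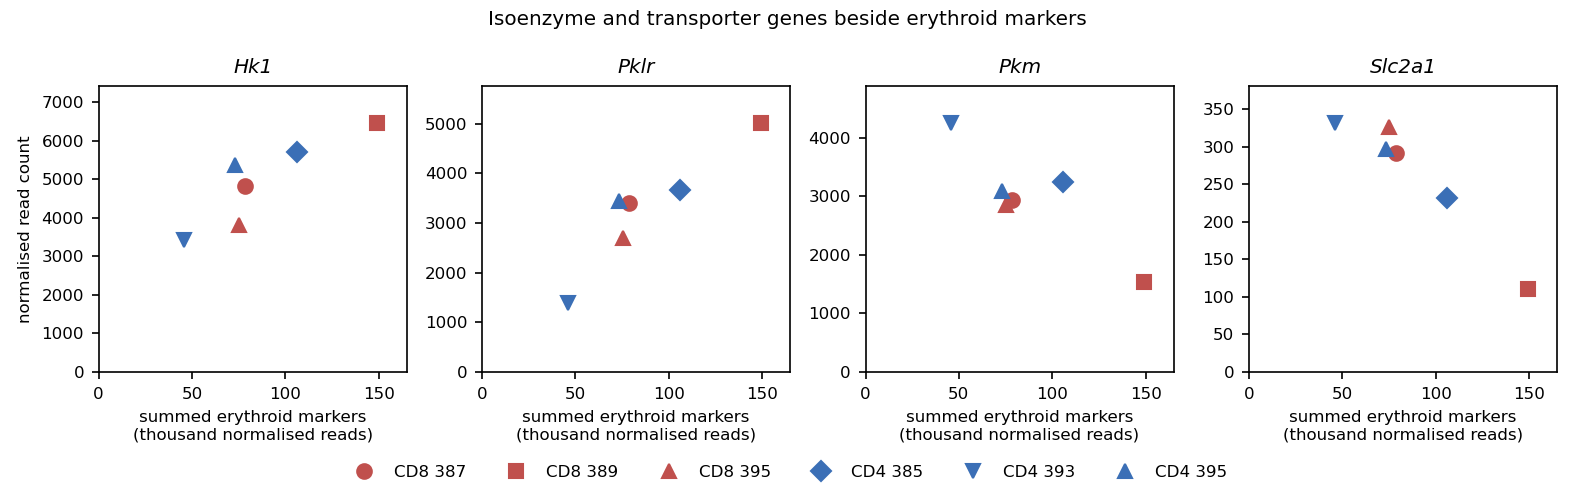
Normalised read counts of Hk1, Pklr, Pkm and Slc2a1 (y axes, from 0) against the summed level of 17 erythroid markers (x axis, normalised reads) in the 3 CD8 libraries (red) and the 3 CD4 libraries (blue). CD8 389, at an erythroid sum of 149213, is highest for Hk1 and Pklr and lowest for Pkm and Slc2a1, and CD4 393, at 45951, is at the opposite end of each plot.

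Ldha, which makes the lactate dehydrogenase subunit that favours lactate formation, had 6642, 6378 and 6264 normalised reads in CD8 387, 389 and 395, against 6815, 5475 and 7282 in CD4 385, 393 and 395. The CD8 libraries lay within the range of the CD4 libraries, and the log2 difference was -0.011 (SE 0.17, 95% interval -0.40 to 0.38). Ldhb, the subunit of tissues that oxidise lactate, had 47.8, 21.3 and 86.0 in the CD8 libraries, against 98.4, 222 and 127 in the CD4 libraries. Every CD8 library was below every CD4 library, where 10.2% of all genes had no overlap in one direction or the other, and Ldhb was not called (log2 difference -1.63, SE 0.54, 95% interval -2.88 to -0.38, limma unadjusted p = 0.017, adjusted p = 0.523). Ldha far exceeded Ldhb per base of the principal transcript, by 103-, 221- and 53.8-fold in CD8 387, 389 and 395, against 51.1-, 18.2- and 42.5-fold in CD4 385, 393 and 395. Over the exon union it did so by 65.9-, 142- and 34.5-fold in the CD8 libraries, against 32.8-, 11.7- and 27.3-fold in the CD4 libraries.

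**Figure D3:**
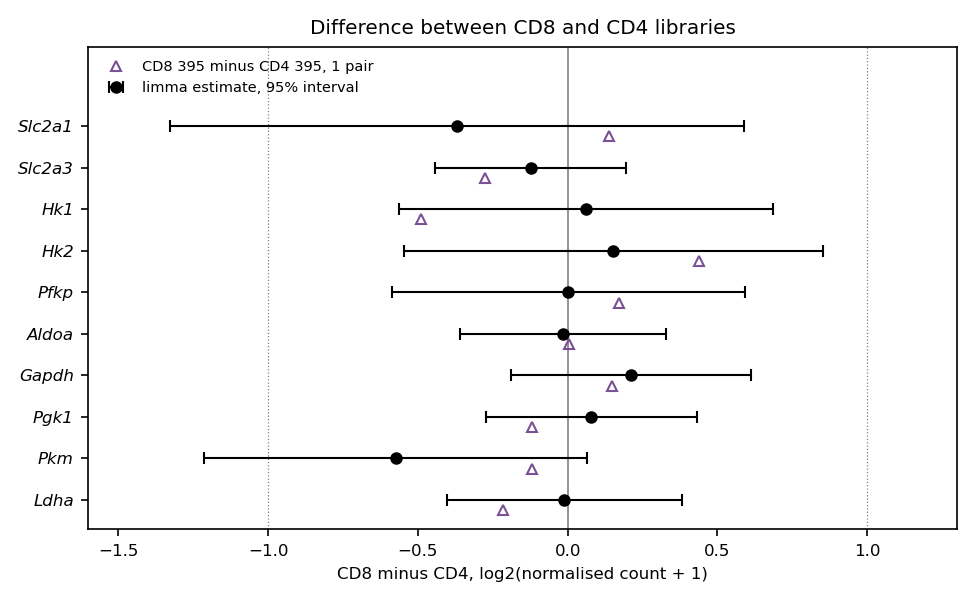
Log2 difference, CD8 minus CD4, of the 10 genes (x axis) as the limma estimate with its 95% interval (black), and the difference between the CD8 and the CD4 library numbered 395 (open triangles). Every interval includes 0, and dotted lines mark a 2-fold difference in either direction.

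The width of the intervals differed between the genes. For Slc2a3, Aldoa, Pgk1 and Ldha the limma interval kept the CD8 to CD4 ratio between 0.736 and 1.146, 0.780 and 1.257, 0.828 and 1.348, and 0.756 and 1.302. For Gapdh the ratio was between 0.877 and 1.53. On the log2 scale the interval was widest for Slc2a1, with a ratio of 0.398 to 1.504, followed by Hk2 at 0.685 to 1.81 and Pkm at 0.431 to 1.05. Hk1 and Pfkp had 0.676 to 1.61 and 0.666 to 1.51. Counting error is small beside this, since the lowest of the 10 genes had 103 reads in a library and the highest had 8762. Number 395 gave a library of each group, and there 5 of the 10 genes were higher in CD8 395 than in CD4 395, from 0.44 on the log2 scale for Hk2 to -0.49 for Hk1. Pkm differed by -0.12 in that pair.

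The 10 genes fell into an even and an uneven set across libraries. Slc2a3, Aldoa, Gapdh, Pgk1 and Ldha differed by 1.20- to 1.46-fold between their highest and lowest library, and Slc2a1, Hk1, Hk2, Pfkp and Pkm by 1.89- to 3.01-fold. The median log2 range of the 10 was 0.73, beside 0.70 for the 9951 tested genes with a mean of 100 or more. Of the 10 genes, 4 were lowest and 2 highest in CD8 389, and 4 were lowest and 2 highest in CD4 393. Slc2a1 and Pkm were lowest in CD8 389 and highest in CD4 393, and Hk1 and Gapdh were the reverse. Those libraries also had the highest and the lowest erythroid and proliferation sums, and with the erythroid sum as a covariate the log2 differences were 0.036 for Slc2a1, -0.31 for Pkm and -0.21 for Hk1, none of them called. For Slc2a1 the order of the libraries was nearly that of the T cell receptor sum, with CD8 395 and CD4 395 exchanged. The separate parts of red cell precursors, dividing cells and T cells in these values were not tested.

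Averaged over the 10 genes, the centred log2 level was 0.11, -0.19 and -0.0051 in CD8 387, 389 and 395, against 0.07, -0.0074 and 0.03 in CD4 385, 393 and 395. This average was lowest in CD8 389 and highest in CD8 387, whereas the summed level was lowest in CD4 393 and highest in CD4 385. In CD8 389 the average joined opposite values, from -1.17 for Slc2a1 to 0.42 for Hk1. The candidates were 10073 genes with a mean of 50 or more and at least the range of the average. Closest to it over the 6 libraries were Tmem50a, Rnf44, Nipal3, Axin1 and Scap. Their root mean square difference from it was 0.030 to 0.044 on the log2 scale.

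Few of the adjoining pathway genes were called, as was so for all genes tested. Of 73 genes in 7 lists of adjoining steps, 56 were in the table and 55 were tested; 0 were called higher and 1 lower in CD8 by limma, beside 0.281% and 0.209% of all genes. Their median log2 difference was 0.07, beside 0.04 for all genes tested. Among 14 tested glycolytic enzymes (0 called), the isomerase gene Gpi1 averaged 4239 ± 434 normalised reads in CD8 and 4276 ± 84.2 in CD4 (SD, n = 3 each). Of 5 other glucose transporters (0 called), Slc2a8 averaged 302 ± 68.7 in CD8 and 234 ± 47.9 in CD4, and Slc2a9, which carries urate, 113 ± 50.3 in CD8 and 137 ± 47.6 in CD4.

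Genes that carry lactate out or divert glucose varied between libraries, and none was called between groups. Slc16a1, the lactate transporter MCT1, had 2082, 3546 and 1782 normalised reads in CD8 387, 389 and 395, against 2408, 1071 and 2039 in CD4 385, 393 and 395. Its partner chain Bsg had 3446, 5029.6 and 3719 in the CD8 libraries, against 4112, 2151 and 3082 in the CD4 libraries. Both were highest in CD8 389 and lowest in CD4 393, as was Tkt, the transketolase of the pentose phosphate pathway, at 9781 and 4826. The full order of the libraries for Slc16a1 and for Tkt was that of the proliferation sum. The erythroid sum had the same order but for CD8 395 and CD4 395, at 75256 and 73240, being exchanged. The part of neither sum was tested. None of the 5 lactate transport genes and none of the 8 pentose phosphate genes was called; Taldo1, the transaldolase gene, averaged 3936 ± 285 in CD8 and 3209 ± 662 in CD4 (SD, n = 3 each). Of the 5 tested regulators of phosphofructokinase 0 were called, with Pfkfb3, which makes its activator, at 729 ± 110.2 in CD8 and 589 ± 97.1 in CD4, and Pfkfb2 at 230.04 ± 71.2 in CD8 and 213 ± 50.6 in CD4. Of the 10 genes that govern entry of pyruvate into mitochondria 0 were called, with Pdk1, the kinase that blocks it, at 2251 ± 249 in CD8 and 2621 ± 713 in CD4, and Pdha1, its target, at 2255 ± 335 in CD8 and 2278 ± 325 in CD4.

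Among the transcription factors known to act on glycolysis genes, Epas1 was the called gene, of 8 tested. Epas1, which encodes HIF-2 alpha, had 21.0, 10.2 and 17.4 normalised reads in CD8 387, 389 and 395, against 96.7, 134 and 137 in CD4 385, 393 and 395. It fell in the CD8 libraries with no overlap (log2 difference -2.88, SE 0.36, limma adjusted p = 0.025), and the call was lost when any library other than CD8 389 was left out, with an adjusted p up to 0.150 and a log2 difference still between -3.09 and -2.79, and after rescaling to the T cell receptor sum. EdgeR and DESeq2, which called 0.173% and 1.14% of all genes lower in CD8, also called it. Hif1a, which encodes the HIF-1 alpha of most cells, had 806, 526 and 596 in the CD8 libraries, against 963, 1351 and 886 in the CD4 libraries. Its groups did not overlap either, but it was not called (log2 difference -0.73, SE 0.23, limma unadjusted p = 0.014, adjusted p = 0.461). Epas1, Hif1a and Ldhb were the 3 of the 55 tested adjoining genes without overlap, beside 10.2% of all genes tested. Myc and Mlxip averaged 2361 ± 603 and 1627 ± 406 in CD8, and 2334 ± 307 and 1939 ± 236 in CD4 (SD, n = 3 each). The genes with the ACGTG core shown above, Slc2a1, Hk1, Pkm and Ldha, had log2 differences of -0.37, 0.06, -0.57 and -0.011. The other genes with the core, Hk2, Aldoa, Gapdh and Pgk1, had 0.15, -0.015, 0.21 and 0.08. None of these genes was called.

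**Figure D4:**
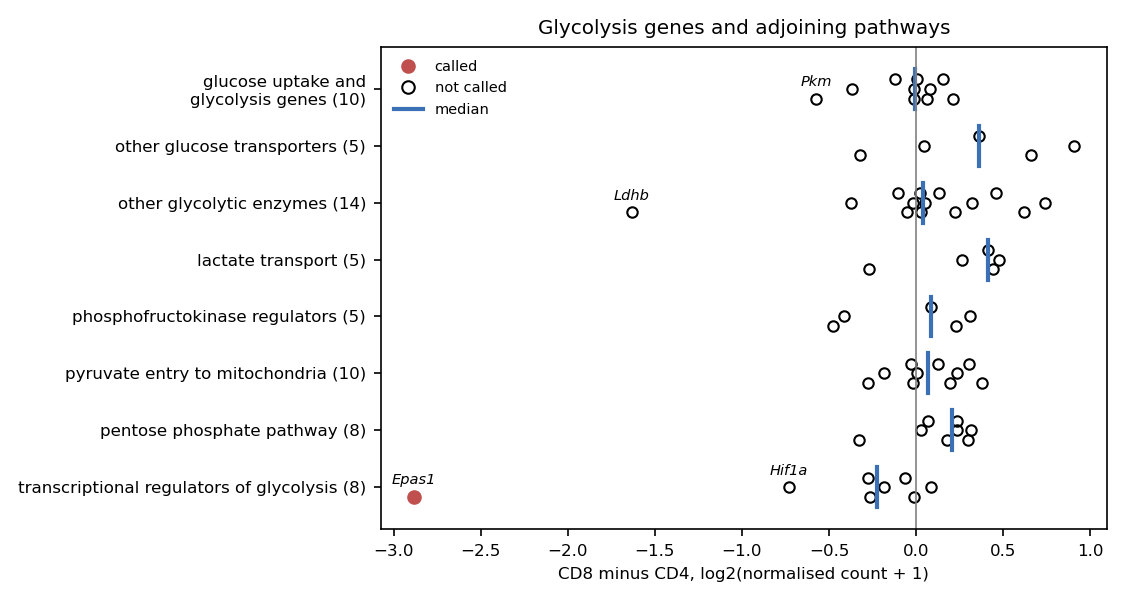
Log2 difference, CD8 minus CD4 (x axis), of each tested gene in the 10-gene set and in 7 lists of adjoining pathway genes (rows, with the number tested); filled red points were called by limma, open points were not, and blue bars are medians. Epas1, at -2.88, is the called gene, and Ldhb, Hif1a and Pkm are the next lowest points named.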

How the data were processed

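The authors deposited a normalised signal, which is each gene's read count over 1 size factor per library; whole reads were recovered, with 100% of the values in every library whole within 0.001 reads. The submitters' processing notes name GRCm39 as build and, as tools without roles, DESeq2, featureCounts 2.0 and STAR 2.7.5c. The sources used here give neither annotation nor strand setting. Trizol RNA went into strand-marking mRNA libraries, per the labels' protocols.

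Libraries were grouped by their labels. Limma 3.58.1 (R 4.3.3) with a mean-variance trend was run on log2(value + 1), two-sided, over the 13877 genes that reached 10 in 3 or more libraries, with Benjamini-Hochberg adjustment over all of them. Differences on this scale understate low genes. EdgeR 4.0.16 (quasi-likelihood) called 59 genes and DESeq2 1.42.0 called 319 on the recovered reads, as alternatives. The design was chosen with earlier results of these data known, as were the 10 genes and the lists. Named genes are the 10, every called gene of a list and, where fewer than 2 were called, its 2 most abundant genes, the 5 genes closest in profile, and Ldhb; Hk3, Pfkl, Pfkm and Hif1a were added after their values were seen. Lengths came from GENCODE M21 (GRCm38), where the symbol Aldoa has 2 gene IDs. On simulated reads (13847 genes), limma called 25% of 2-fold and 88% of 4-fold changes, with 5 false calls.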

Additional observations from a re-analysis of the deposited data

How the results depend on the processing

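No paired analysis was run, since the groups share only the number 395. The CD8 and the CD4 library of that number were treated as independent. Over 15 alternatives, none of the 10 genes was called in any (lowest adjusted p = 0.515). The 68 calls over all genes became 104 with a pseudocount of 5, 113 after rescaling to the T cell receptor sum (96 higher in CD8, beside 39 of the 68), 319 by DESeq2, 113 with the proliferation and 105 with the erythroid covariate, and 7 to 46 with 1 library left out. The 1 called pathway gene, Epas1, became 0 after that rescaling (log2 difference -2.22, adjusted p = 0.101) and 0 to 1 with 1 library left out.

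Some differences changed sign. Rescaling to the T cell receptor sum multiplies all genes of a library alike and moved the median of all genes from 0.04 to 0.72, so the sign changes it gave, to 0.31 for Slc2a1, 0.56 for Slc2a3, 0.67 for Aldoa, 0.11 for Pkm and 0.67 for Ldha, follow from that shift, and all 5 values lie below the new median. The cause of the other sign changes was not tested. Pfkp was -0.025 with TMM scaling. The proliferation covariate gave 0.14 for Slc2a1, -0.25 for Hk1 and 0.032 for Aldoa, and the erythroid covariate gave 0.036, -0.21 and 0.010 for the same genes. With 1 library left out, ranges were -0.66 to 0.12 for Slc2a1, -0.17 to 0.24 for Hk1, -0.12 to 0.37 for Hk2, -0.20 to 0.26 for Pfkp, -0.067 to 0.072 for Aldoa, -0.027 to 0.17 for Pgk1 and -0.13 to 0.073 for Ldha. Gapdh, with 0.09 to 0.90, kept its sign in all 15. At 3 libraries per group, 25% of simulated 2-fold changes were called, so most differences of that size, and smaller ones, could be missed. The simulation drew each gene independently, without shifts shared by many genes of a library.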
